A study of Mus musculus with 10 samples.

Results

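The Runx genes encode a small family of transcription factors, and the accessible chromatin in and around Runx1, Runx2, Runx3 and the gene of their shared partner, Cbfb, is described here in Myc-CaP cells. Members were all called regions that overlapped 1 of the 4 genes (GENCODE M21 on mm10) or the 50 kb on either side of it. After regions of the 5 peak lists were merged, 169 of 211107 regions were members, 59 at Runx1, 57 at Runx2, 28 at Runx3 and 25 at Cbfb. The family was chosen by the level of 1 region in these lists, about 4 kb beyond Runx2, which was among the strongest gains with oxaliplatin. That gain is therefore a description and supports nothing.

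Each RUNX protein binds DNA through a Runt domain and gains affinity and stability from CBFβ, which does not bind DNA itself. RUNX1 is required for definitive blood formation, RUNX2 for bone formation and RUNX3 for T-cell and sensory neuron development, and all of them also act in epithelia, including those of carcinomas. Each of the Runx genes is transcribed from a distal promoter, P1, and a proximal promoter, P2, which give proteins with different amino termini.

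ATAC-seq, in which a transposase inserts adapters into open chromatin, was performed on Myc-CaP cells, a single mouse line from a prostate carcinoma driven by a MYC transgene under a probasin promoter. Over 48 h, cells were left untreated (Ctrl) or were given interferon-γ (IFNγ, 1000 pg in the labels, with no volume), cisplatin at 2 µM (Cispl), oxaliplatin at 2 µM (Oxali), or oxaliplatin with IFNγ at those same amounts (Oxali + IFNγ). Both drugs are platinum complexes that crosslink DNA, and oxaliplatin differs from cisplatin in carrying a diaminocyclohexane and an oxalate ligand. The 2 libraries of each group were pooled by the authors before peaks were called, so there is 1 list per group, the spread between replicates is unknown, and no difference below could be tested.

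Depth and cell type were checked first. By the genome-wide background in the peak scores, depth was 79.3% of Ctrl in the IFNγ list, which was the shallowest, 92.9% in Oxali, 113% in Cispl and 106% in Oxali + IFNγ. Values for several lists are given below in the order Ctrl, IFNγ, Oxali, Cispl, Oxali + IFNγ, first the lists without a platinum drug and then those with one. A level below is the highest pileup of fragment ends in a region divided by that background, so that 1 is the genome average. Intervals are 95% Poisson or binomial intervals of the pileups and cover counting error only. The start sites of Hoxb13 and Foxa1, which mark prostate epithelium, were called in all 5 lists. Of 5 epithelial markers, Krt8 and Cldn4 were called in all lists, Krt18 in Ctrl and Oxali, Epcam in IFNγ and Cdh1 in none, and their summed level was 125 in Ctrl, 112 in IFNγ, 79.1 in Oxali, 65.9 in Cispl and 82.2 in Oxali + IFNγ. Among leukocyte markers, Cd68 was called with levels of 13.8 to 22.1, and Ptprc, Cd3e and Itgam were listed nowhere. Of 4 markers of fibroblasts and bone, Pdgfra and Col1a1 were called in all lists, Col1a2 in Ctrl and Cispl, and Bglap in IFNγ, Cispl and Oxali + IFNγ, and the summed level of that 4-gene list ran from 119 to 165 and was highest in Ctrl. Of 2 endothelial markers, Cdh5 was listed nowhere and Pecam1 did not exceed a level of 2.98. The part of other cell types in the results was not tested.

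The DNA-binding members share a sequence at their distal promoters, where the levels with a platinum drug lay above the level, or the limit for listing, without one. At Runx1 the Cispl level was not clear of that limit by counting error. The RefSeq promoters (GRCm38.p6, 250 bases before to 50 after the start) of Runx1, Runx2 and Runx3 P1 share a run of 18 bases that holds a pair of RUNX letters, ACCACA, the reverse complement of TGTGGT. These 30-base stretches are shown because all 3 lie inside the regions whose levels differed. They are written along the gene strand, with RUNX letters (TGTGGT or TGCGGT on either strand) in capitals.
Runx1 P1, chr16:92826025-92826054, minus strand: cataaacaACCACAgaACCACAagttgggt
Runx2 P1, chr17:44814583-44814612, minus strand: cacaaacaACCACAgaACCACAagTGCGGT
Runx3 P1, chr4:135120503-135120532, plus strand: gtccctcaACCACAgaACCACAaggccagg
The shared run was found in 4 of 32817 promoters in the RefSeq table (0.0122%), those of the 3 Runx genes and of Gm16225, which starts beside Runx3. The run was taken as the longest common to the 3 Runx promoters, so their matches were fixed in advance and the share is a description. The P2 promoters of Runx1 and Runx3 and the Cbfb promoter in that table held no RUNX letters. Runx1 P1 and Runx3 P1 each held 2 matches in 300 bases and Runx2 P1 held 4, whereas 22.4% of all promoters held at least 1, 2.87% at least 2 and 0.289% at least 3. The highest summit lay 54 bp from the middle of the 30-base stretch at Runx1, 132 bp at Runx2 and 29 bp at Runx3. A match of letters is a description of the sequence and says nothing about which protein was bound.

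The P1 regions were weak or missing in Ctrl and with IFNγ alone and were called in all lists with a platinum drug. At Runx1 P1 (chr16:92825849-92826182, first exon and 5′ UTR), no region was called in Ctrl or IFNγ, where a level of 3.62 and 3.74 would have been enough for listing. The level was 9.94 in Oxali (8.18 to 12.0), 4.58 in Cispl (3.52 to 5.86) and 13.9 in Oxali + IFNγ (11.9 to 16.1). The 3 levels thus differed by more than counting error, but the Cispl interval covered the levels for listing in Ctrl and IFNγ. Oxali + IFNγ was 1.40 times Oxali (1.10 to 1.78) and Cispl was 0.461 times Oxali (0.333 to 0.633).

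Runx2 P1 (chr17:44814128-44815254) was the weakest of these promoters in both lists with oxaliplatin. This region also lies within Supt3, a gene of a transcription cofactor complex that overlaps Runx2. It was absent from Ctrl and IFNγ, where levels of 1.73 and 1.87 would have been listed, and reached 4.61 in Oxali (3.45 to 6.05), 4.72 in Cispl (3.64 to 6.02) and 5.27 in Oxali + IFNγ (4.09 to 6.68). These 3 levels could not be told apart by counting error, with Cispl at 1.02 times Oxali (0.70 to 1.50).

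Runx3 P1 (chr4:135119999-135120918), which also covers the start of Gm16225, was called in every list. The pileups of 66 in Ctrl, 73 in IFNγ, 309 in Oxali, 167 in Cispl and 355 in Oxali + IFNγ gave levels of 5.44, 7.59, 27.4, 12.1 and 27.5. Both lists with oxaliplatin stood highest and did not differ beyond counting error, Cispl lay between, and IFNγ and Ctrl were lowest. Relative to Ctrl the level was 1.40 times as high in IFNγ (0.987 to 1.98), 5.04 times in Oxali (3.85 to 6.68), 2.23 times in Cispl (1.67 to 3.01) and 5.06 times in Oxali + IFNγ (3.88 to 6.68). Among 14535 start-site regions of all genes called in the Oxali and Ctrl lists, 21 (0.144%) had a ratio at least as large. Genome-wide, 3.77% of start-site regions were at least 2-fold higher with Oxali, 2.89% with Cispl, 4.43% with Oxali + IFNγ and 0.0699% with IFNγ alone, and 0.908%, 6.36%, 30.6% and 4.77% in that order were at least 2-fold lower. Cispl was 0.443 times Oxali at this promoter (0.364 to 0.536), and 0.638% of all start-site regions were at least 2-fold lower with Cispl than with Oxali and 0.44% higher. When the deposited fold over the local background replaced the level, the log2 ratio of Oxali to Ctrl was 1.94 instead of 2.33.

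**Figure D1:**
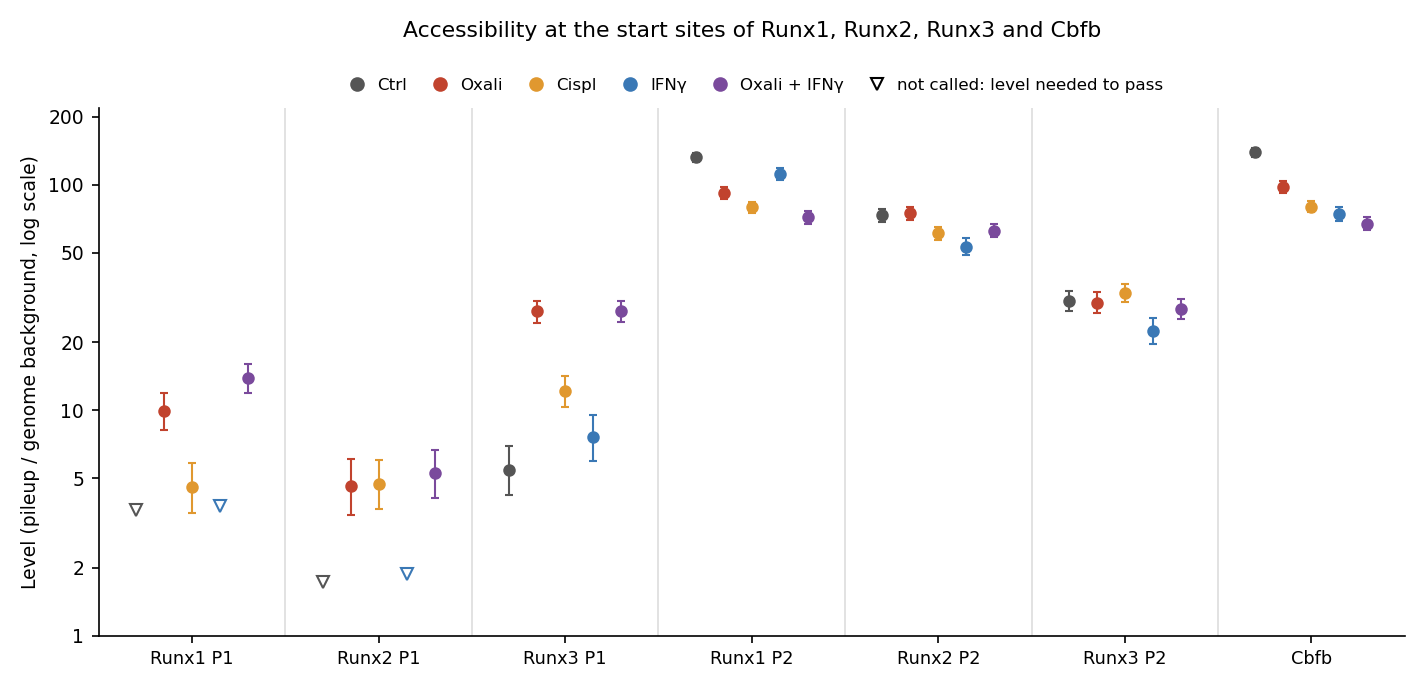
Level (pileup over genome background, log axis) at the start-site regions of the Runx genes and Cbfb in the 5 lists. Points are levels with 95% Poisson intervals of the pileup, and open triangles mark the level that a region missing from a list would have needed. The P1 regions stand between 4.58 and 27.5 in the platinum lists and are missing or at most 7.59 in Ctrl and IFNγ, whereas P2 and Cbfb lie between 22.6 and 139 in every list.

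The proximal promoters were open in every list and did not share this order. At Runx1 P2 (chr16:92697154-92698950) the level was 132 in Ctrl, 111 in IFNγ, 91.8 in Oxali, 79.4 in Cispl and 71.8 in Oxali + IFNγ. Ctrl was highest and Oxali + IFNγ lowest, at 0.543 times Ctrl (0.501 to 0.589). The log2 ratios to Ctrl of the 4 treated lists, -0.25, -0.53, -0.74 and -0.88, stood beside medians over all start-site regions of -0.49, -0.36, -0.53 and -0.71. The IFNγ ratio at Runx1 P2 was at 0.00 once ratios were centred on regions called in all lists. A second start-site region of Runx1 (chr16:92696561-92697047) had levels of 65.1, 63.3, 60.0, 40.8 and 52.8. Another one (chr16:92695335-92695736) was gained in the 3 platinum lists, at 20.0, 19.9 and 18.4, but it lay so near P2 that a level of 14.7 would have been needed in Ctrl.

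Runx2 P2 (chr17:44733934-44736680), which also covers the antisense gene Runx2os1, had levels of 73.2 in Ctrl, 53.2 in IFNγ, 74.8 in Oxali, 60.9 in Cispl and 62.6 in Oxali + IFNγ. Oxali was at 1.02 times Ctrl (0.929 to 1.12), a ratio that fell below 1 under both other scalings, and IFNγ was lowest at 0.727 times (0.651 to 0.812). Runx3 P2 (chr4:135152157-135154320) had levels of 30.5, 22.6, 30.0, 33.2 and 28.2, and only the IFNγ interval (0.623 to 0.877 times Ctrl) kept clear of 1. Within Runx3, P1 was therefore at 5.44 against 30.5 for P2 in Ctrl, and at 27.4 against 30.0 with Oxali, whose intervals overlap. Reads of the antisense gene cannot be told apart from those of Runx2, since ATAC-seq carries no strand.

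Of 14 members at the start site of any protein-coding gene, 9 of them at one of the 4 genes, 3 were gained with Oxali, namely P1 of Runx1, P1 of Runx2 and the Runx1 region at chr16:92695335-92695736. Over all genes, the share of strong start-site regions that were gained was 7.86% in IFNγ, 15.1% in Oxali, 19.7% in Cispl and 18.9% in Oxali + IFNγ. Strong means a q-value of at most 0.01, and gained means strong in the treated list with no deposited Ctrl region overlapping by 1 bp. Lost means strong in Ctrl with no deposited region of the treated list overlapping by 1 bp. Strong, gained and lost regions were counted in each list before merging. A member can thus hold several of them, as Runx2 P1 did with Oxali. A gained or lost region can also be part of a member called in both lists.

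Runx1, a regulator of blood stem cells that is also expressed in many epithelia, had 35 strong regions in its window in Ctrl, 26 in IFNγ, 48 in Oxali, 48 in Cispl and 53 in Oxali + IFNγ. Gained regions numbered 0, 17, 17 and 21 in the 4 treated lists, and lost regions 7, 1, 1 and 1. The gains were 35.4% of strong regions in Oxali, 35.4% in Cispl and 39.6% in Oxali + IFNγ, near the shares over all regions of 32.5%, 37.3% and 38.4%. With IFNγ, Runx1 had 0 gains among 26 strong regions, against 12.9% over all regions. The 7 losses made up 20.0% of the Ctrl regions, against 15.8% over all regions, and the single loss in each platinum list 2.86%, against 9.11, 5.9 and 7.59%. The losses with IFNγ include several parts of the member 214.4 kb from the start. They also include a part of the member at 159.5 kb, which was called in all 5 lists. The IFNγ list was the shallowest. The strongest loss (chr16:92562276-92562982, 38484 bp downstream) had levels of 4.61 in Ctrl, 4.35 in Oxali, 7.99 in Cispl and 6.35 in Oxali + IFNγ and was missing from IFNγ, where 2.18 would have been listed.

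The strongest Runx1 gains lay in an intron and upstream of the gene. An intronic region 87.9 kb from the start (chr16:92737913-92738512) had levels of 9.49 in Oxali, 3.85 in Cispl and 5.97 in Oxali + IFNγ, with none called in Ctrl or IFNγ. Oxali stood highest, and Cispl was 0.406 times Oxali (0.286 to 0.569). A region 38072 bp upstream (chr16:92864221-92864749, within Gm49723) showed another order, with 5.06 in Oxali, 5.81 in Cispl and 10.2 in Oxali + IFNγ. There Oxali + IFNγ was 2.01 times Oxali (1.46 to 2.79). It was the only one of 127 members called in both lists to reach a 2-fold difference between them, against 0.285% of all regions higher and 0.269% lower.

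Among Runx1 regions called in both lists, 3 of 29 (10.3%) were at least 2-fold higher with Oxali, against 14.6% over all regions. All were in introns and are named here after their values were seen, and only that at 45.9 kb stayed past 2-fold on the deposited fold. The region 45.9 kb from the start (chr16:92779847-92780616) had levels of 4.37 in Ctrl, 4.57 in IFNγ, 14.7 in Oxali, 9.23 in Cispl and 14.8 in Oxali + IFNγ. The region at 159.5 kb (chr16:92665959-92667423) had 6.51, 5.40, 18.1, 15.5 and 16.5. The region at 119.4 kb (chr16:92706458-92706944) had 2.80, 2.60, 7.10, 4.87 and 9.69. Ctrl and IFNγ were the 2 lowest lists at each of the 3. Among regions with a pileup of at least 100, the largest IFNγ ratio of the windows was also in a Runx1 intron, at 176.0 kb (chr16:92649946-92650370), with 8.81 in Ctrl and 14.9 in IFNγ, a ratio of 1.69 (1.30 to 2.19).

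Runx2, the regulator of osteoblast differentiation, had 33, 36, 45, 53 and 48 strong regions in the 5 lists. Gained regions numbered 5, 14, 22 and 17 in the treated lists, or 13.9, 31.1, 41.5 and 35.4% of strong regions against 12.9, 32.5, 37.3 and 38.4% over all regions. Lost regions numbered 2, 1, 2 and 1, or 6.06, 3.03, 6.06 and 3.03% of Ctrl regions against 15.8, 9.11, 5.9 and 7.59%. The gain by which the family was chosen lies 3748 bp downstream of the gene, outside any annotated gene (chr17:44491460-44492239). Its sequence around the highest summit (201 bases, plus strand, GRCm38.p6, chr17:44491614-44491814) is printed because this is the strongest gain of the windows with all 3 platinum treatments. It has no capitals because none of the 6 motifs searched had a match there.
Runx2 downstream region: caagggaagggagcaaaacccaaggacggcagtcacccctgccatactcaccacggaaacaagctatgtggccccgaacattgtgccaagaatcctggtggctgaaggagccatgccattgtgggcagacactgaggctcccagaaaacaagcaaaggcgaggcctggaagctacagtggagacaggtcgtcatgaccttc
The region was missing from Ctrl and IFNγ, where levels of 2.14 and 2.18 would have been listed. The pileup was 273 in Oxali, 176 in Cispl and 291 in Oxali + IFNγ, giving levels of 24.2 (21.4 to 27.3), 12.8 (11.0 to 14.8) and 22.5 (20.0 to 25.3). By q-value it ranked 3 among 49898 gained regions with Oxali, 63 among 64071 with Cispl and 7 among 64996 with Oxali + IFNγ. Both Oxali lists stood above Cispl, which was 0.528 times Oxali (0.434 to 0.640), and the 2 Oxali lists did not differ beyond counting error (0.931, 0.787 to 1.10).

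The highest level of the Runx2 window in any list, 80.7 in Ctrl, belonged to the start site of Supt3 (chr17:44776662-44777975, in a Runx2 intron). Its levels were 80.7 in Ctrl, 44.3 in IFNγ, 61.1 in Oxali, 47.1 in Cispl and 40.1 in Oxali + IFNγ, and in each treated list another member of the window was higher. Ctrl was again the highest, as at Runx1 P2. An intronic region at 266.5 kb (chr17:44547823-44548745) was the one member at least 2-fold lower with Cispl, with levels of 11.5, 15.1, 10.7, 4.87 and 11.4 and a Cispl ratio of 0.425 (0.313 to 0.573). An intronic region at 195.9 kb (chr17:44618848-44619013) was called only in Ctrl, at 5.52, and IFNγ, at 5.40, and was the strongest Runx2 loss in each platinum list, where 3.10 to 3.41 would have been listed.

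At Runx2, 4 of 30 regions called in both lists (13.3%) were at least 2-fold higher with Oxali, against 14.6% over all regions. They lay in introns at 138.6 kb (2.88 in Ctrl and 7.27 in Oxali), 160.1 kb (3.05 and 6.74) and 163.3 kb (6.51 and 13.8), and 15.6 kb beyond the gene (2.72 and 5.86). Only that at 138.6 kb stayed past 2-fold when ratios were centred on regions called in all lists, and on the deposited fold only those at 138.6 kb and beyond the gene did. The region at 163.3 kb was missing from IFNγ, where a level of 4.99 would have been needed, and was its strongest Runx2 loss. The strongest Runx2 gain with IFNγ, in an intron at 114.3 kb, was called in that list alone at a level of 3.33 from a pileup of 32.

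Runx3, which directs CD8 T-cell development and acts in epithelia, had 23, 20, 27, 28 and 26 strong regions. Gained regions numbered 1, 7, 8 and 6, or 5.00, 25.9, 28.6 and 23.1% of strong regions, below the shares over all regions of 12.9, 32.5, 37.3 and 38.4%. Lost regions numbered 3, 0, 1 and 0, or 13.0, 0, 4.35 and 0% of Ctrl regions against 15.8, 9.11, 5.9 and 7.59%. Of 20 regions called in both lists, 5 (25.0%) were at least 2-fold higher with Oxali, against 14.6% over all regions. When centred 4 remained past this limit, and on the deposited fold 2 did, P1 and the region 24.7 kb upstream of the start. These 5, named after their values were seen, are P1, a pair of upstream regions and a pair downstream. The upstream region 23979 bp before the gene (chr4:135095328-135096673, outside any gene) had the largest ratio of the windows. Its 201 bases around the highest summit are printed for that reason (chr4:135095789-135095989, plus strand, GRCm38.p6), with an AP-1 match (TGANTCA) in capitals.
Runx3 upstream region: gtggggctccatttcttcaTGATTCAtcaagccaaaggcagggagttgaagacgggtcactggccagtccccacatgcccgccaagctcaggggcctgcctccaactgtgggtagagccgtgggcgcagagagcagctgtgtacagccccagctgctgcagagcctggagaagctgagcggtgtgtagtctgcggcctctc
Pileups were 43 in Ctrl, 36 in IFNγ, 242 in Oxali, 187 in Cispl and 277 in Oxali + IFNγ, and the levels were 3.54, 3.74, 21.5, 13.6 and 21.5. The 3 platinum lists stood clear of Ctrl and IFNγ, which did not differ beyond counting error. The ratio to Ctrl was 1.06 in IFNγ (0.659 to 1.68), 6.06 in Oxali (4.37 to 8.59), 3.84 in Cispl (2.74 to 5.48) and 6.06 in Oxali + IFNγ (4.38 to 8.56). Of 99128 regions called in the Oxali and Ctrl lists, 266 (0.268%) had a ratio at least as large. On the deposited fold the log2 ratio of Oxali to Ctrl at this upstream region was 1.99 instead of 2.60.

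The other Runx3 regions of this kind had higher levels in Ctrl. The region 18.0 kb upstream (chr4:135101828-135103396) had levels of 23.2 in Ctrl, 22.2 in IFNγ, 62.6 in Oxali, 39.1 in Cispl and 55.0 in Oxali + IFNγ. The regions at 70.8 and 83.1 kb from the start, both beyond the gene, had 39.1 in Ctrl against 82.1 in Oxali and 20.1 against 49.5. Oxali was the highest list at each of these 3. The highest level of the Runx3 window in any list, 121 in Oxali, was at an intronic region at 48.7 kb (chr4:135168681-135170070), with 63.0, 67.8, 121, 74.7 and 106. In Ctrl another member was higher, at 79.2. At the intronic region Oxali was 1.91 times Ctrl (1.75 to 2.09). The log2 ratio there was 0.94 on the level and 0.18 on the deposited fold, which divides by the local background.

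The strongest Runx3 gain lay 42892 bp upstream (chr4:135077326-135077760), with levels of 2.18 in IFNγ, 7.54 in Oxali, 7.05 in Cispl and 9.69 in Oxali + IFNγ. It was missing from Ctrl, where 2.64 would have been listed. A region 5371 bp upstream (chr4:135114993-135115281) was the strongest Runx3 loss with Cispl and with IFNγ. It had levels of 3.13 in Ctrl, 2.93 in Oxali and 2.63 in Oxali + IFNγ, and in Cispl and IFNγ levels of 1.96 and 1.87 would have been listed.

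**Figure D2:**
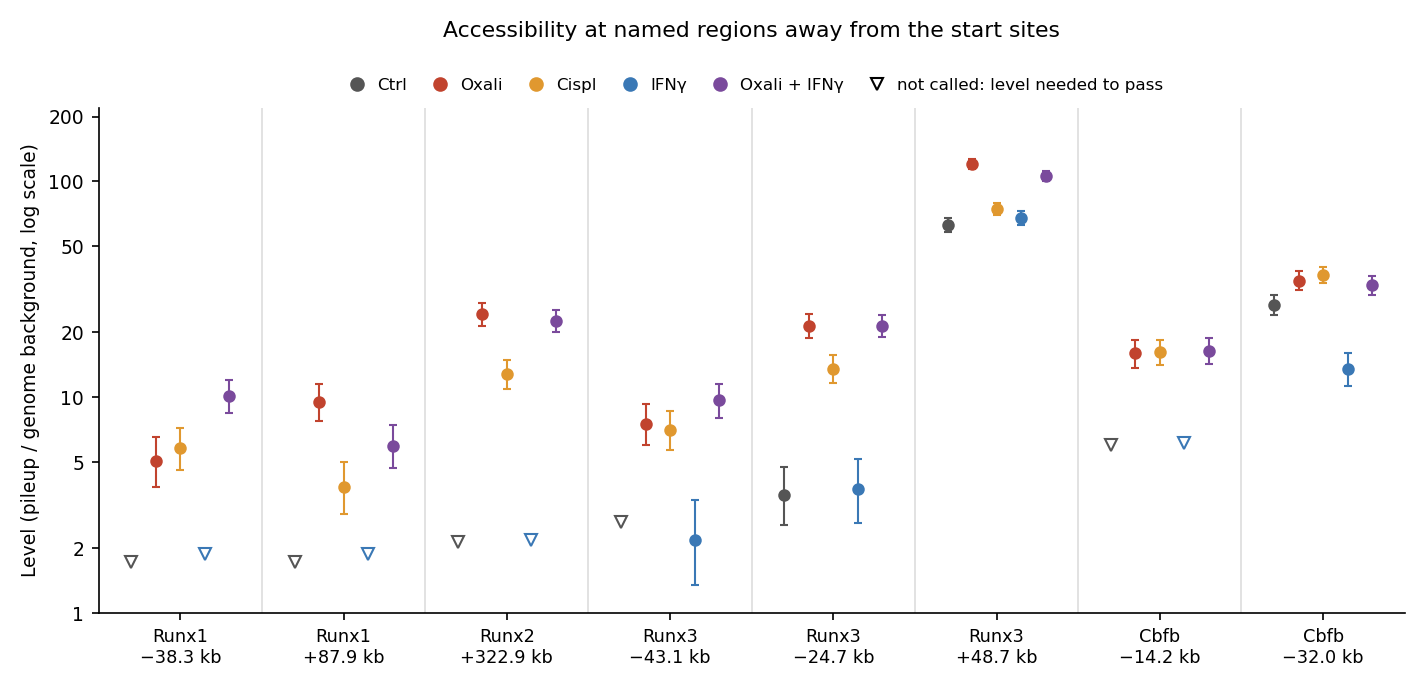
Level (pileup over genome background, log axis) in the 5 lists at 8 named regions away from start sites, labelled by distance from the gene start along the gene. Points carry 95% Poisson intervals and open triangles mark the level needed for listing. Oxali and Oxali + IFNγ lie at 21.5 to 24.2 at the Runx2 and Runx3 regions at +322.9 and -24.7 kb, and the Cbfb region at -14.2 kb is level between the 3 platinum lists.

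Cbfb, which encodes the non-DNA-binding partner, had no region at least 2-fold higher with any treatment among those called in both lists. With Oxali this was 0 of 12, against 14.6% over all regions and 3.77% over start-site regions. The Cbfb start-site region (chr8:105170086-105171852, shared with Gm3830) had the highest level of all members, 139 in Ctrl, and levels of 74.1 in IFNγ, 97.6 in Oxali, 80.1 in Cispl and 67.1 in Oxali + IFNγ. The log2 ratios to Ctrl of -0.91, -0.51, -0.80 and -1.05 were each lower than the medians over all start-site regions given above. With Oxali + IFNγ the region passed the 2-fold limit downward, as did 30.6% of start-site regions genome-wide, but not on the deposited fold, where its log2 ratio was -0.51. The strand-free reads of Cbfb and Gm3830 cannot be told apart.

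The strongest Cbfb gain with each platinum treatment lay 13974 bp upstream (chr8:105156265-105156700). Its levels of 16.0 in Oxali (13.7 to 18.5), 16.2 in Cispl (14.1 to 18.5) and 16.4 in Oxali + IFNγ (14.3 to 18.8) did not differ beyond counting error. It was missing from Ctrl and IFNγ, where levels of 6.01 and 6.13 would have been needed. Unlike at Runx1 P1 and Runx3 P1, Cispl was thus level with Oxali (1.01, 0.83 to 1.24). Cbfb had 16, 18, 19, 22 and 19 strong regions in the 5 lists, with 4, 5, 8 and 7 gained and 2, 2, 0 and 1 lost in the treated lists. The gains were 22.2, 26.3, 36.4 and 36.8% of strong regions against 12.9, 32.5, 37.3 and 38.4% over all regions, and the losses 12.5, 12.5, 0 and 6.25% of Ctrl regions against 15.8, 9.11, 5.9 and 7.59%. The strongest Cbfb loss with Oxali was a part of a member that was called in all 5 lists.

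With IFNγ, all 11 Cbfb regions called in both lists were lower than in Ctrl, with a median log2 ratio of -0.38. Over all regions the median was -0.23 and 70.2% were not higher than in Ctrl. Over all start-site regions the median was -0.49. The share of start-site regions was not matched between the Cbfb window and all regions, and 17 of the 25 Cbfb members lay outside the gene. Once ratios were centred, 7 of the 11 were lower and the Cbfb median was -0.13. A region 31591 bp upstream, within Ces4a (chr8:105138334-105139083), had levels of 26.8 in Ctrl, 13.5 in IFNγ, 34.8 in Oxali, 36.9 in Cispl and 33.0 in Oxali + IFNγ. An intronic region at 43.6 kb (chr8:105214152-105214435) had 11.0, 5.09, 9.58, 8.21 and 10.0. IFNγ was the lowest list at both, with ratios of 0.505 (0.409 to 0.620) and 0.465 (0.328 to 0.650), but Oxali + IFNγ was not. Centred, the latter was no longer past 2-fold, at a log2 ratio of -0.86.

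Over the 4 windows together, strong regions numbered 107 in Ctrl, 100 in IFNγ, 139 in Oxali, 151 in Cispl and 146 in Oxali + IFNγ. Gained regions numbered 43 with Oxali, or 30.9% of the strong regions against 32.5% over all regions. With Cispl they numbered 55 (36.4% against 37.3%), with IFNγ 10 (10.0% against 12.9%) and with Oxali + IFNγ 51 (34.9% against 38.4%). The share gained was thus near the background in every list and is not a result about these genes. Lost regions numbered 4 with Oxali (3.74% of Ctrl regions against 9.11%), 4 with Cispl (3.74% against 5.9%), 14 with IFNγ (13.1% against 15.8%) and 3 with Oxali + IFNγ (2.80% against 7.59%). All treatments were compared with the same Ctrl list.

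**Figure D3:**
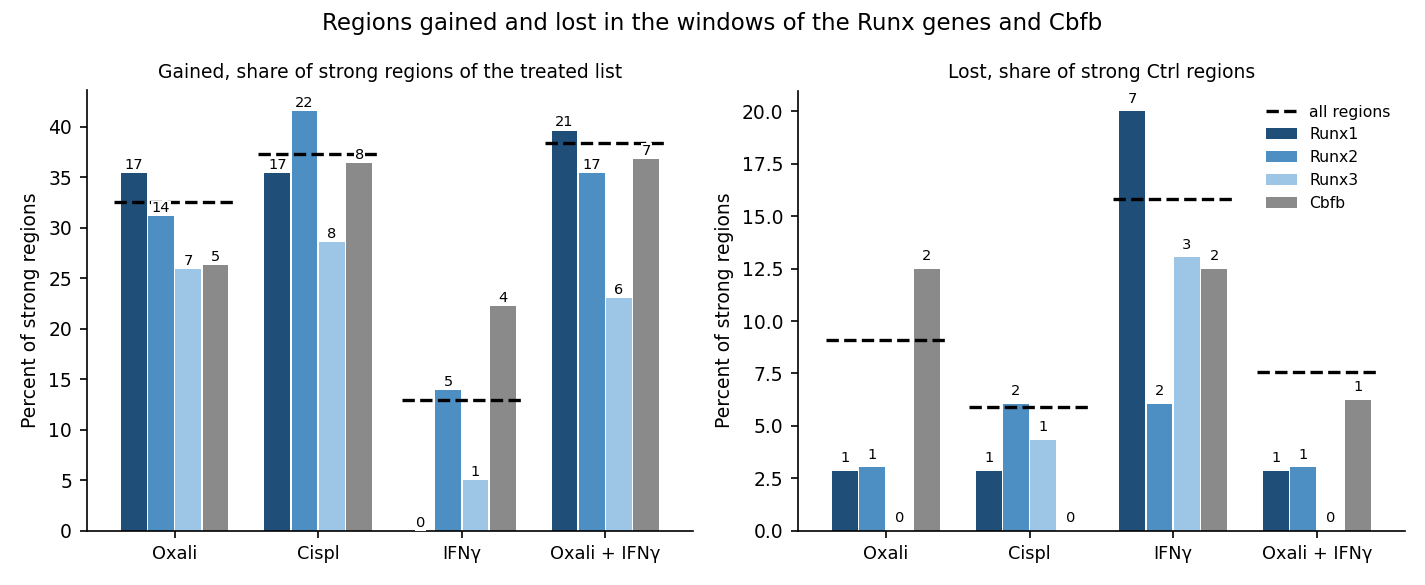
Share of strong regions gained (left, percent of the strong regions of the treated list) and lost (right, percent of the strong Ctrl regions) in each gene's window, with the number of regions above each bar. Dashed lines give the share over all regions, for gains 12.9% in IFNγ, 32.5% in Oxali, 37.3% in Cispl and 38.4% in Oxali + IFNγ, and the 4 genes lie on both sides of them.

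Of the 169 members, 78 (46.2%) were called in all 5 lists, against 40.4% of all regions. A further 24 (14.2%) were called in all 3 lists with a platinum drug and in no other, against 11.1% over all regions, with 9 at Runx1, 8 at Runx2, 5 at Runx3 and 2 at Cbfb. Of these 24, 11 lay in introns, 10 outside the genes and 3 at start sites. Their levels ran from 1.86 to 24.2 in Oxali, with a median of 5.32, from 2.33 to 19.9 in Cispl, with a median of 3.92, and from 2.32 to 22.5 in Oxali + IFNγ, with a median of 5.46. Only 24 members (14.2%) were called in 1 list, against 23.7% of all regions, 13 of them in Cispl, 7 in Oxali + IFNγ, 3 in IFNγ, 1 in Oxali and 0 in Ctrl.

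**Figure D4:**
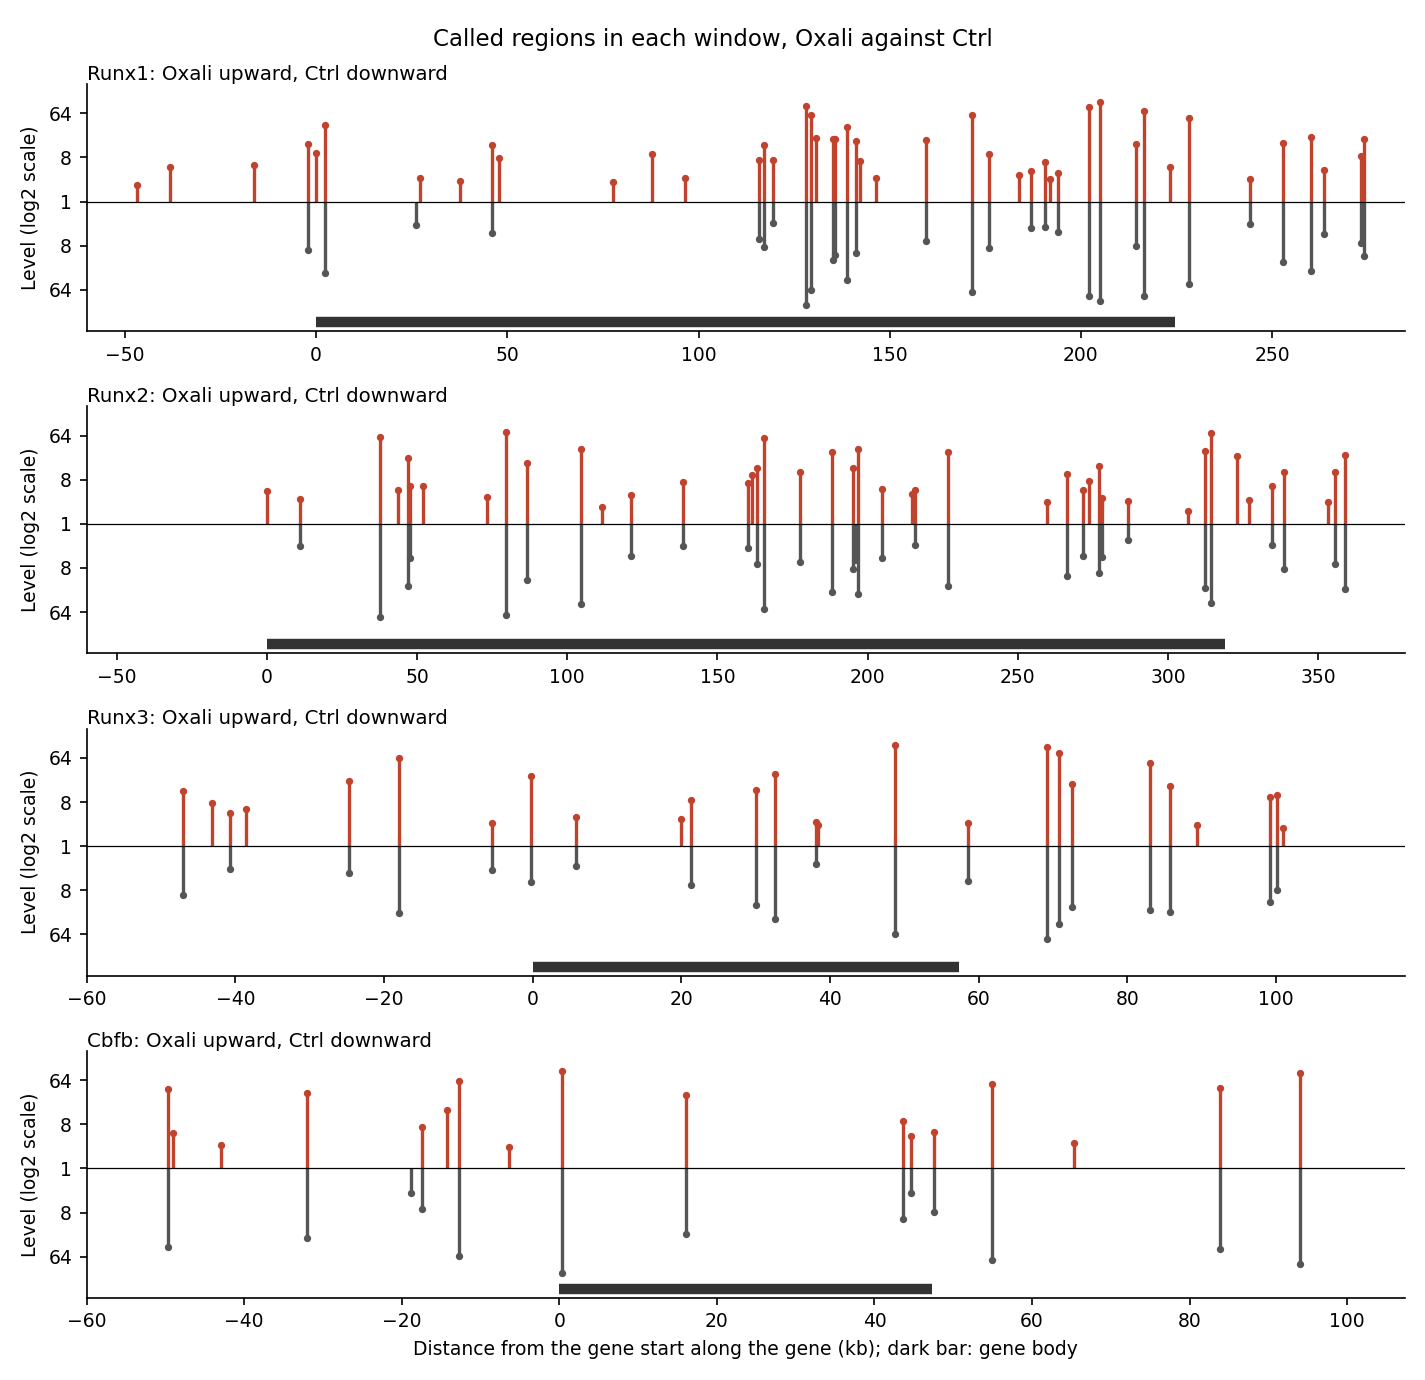
Called regions of each window by distance from the gene start along the gene (kb), with the level on a log2 scale from the genome average (1), Oxali upward and Ctrl downward. The dark bar is the gene body. Runx1 and Runx2 P1 at 0 kb and the Runx2 region at 322.9 kb have a red line only, and Runx3 P1 is taller in Oxali (27.4) than in Ctrl (5.44).

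Levels were compared over members that were called in both lists and strong in at least one. Of 169 members, 82 entered for IFNγ, 91 for Oxali, 90 for Cispl and 91 for Oxali + IFNγ, so members missing from Ctrl are not in these counts. With Oxali, 12 were at least 2-fold higher (background 14.6%) and 0 lower (0.746%), and the median log2 ratio was 0.27 against 0.19 over all regions. With Cispl, 10 were higher (11.3%) and 1 lower (1.7%). The Cispl median was 0.03 against 0.13, and it turned negative under both other scalings.

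With IFNγ, 0 were higher (0.522%) and 2 lower (2.68%). The IFNγ median was -0.06 against -0.23, and 0.19 once ratios were centred on regions called in all lists. With Oxali + IFNγ, 12 were higher (16.1%) and 2 lower (5.66%), with a median of 0.32 against 0.18. By gene, the Oxali medians were 0.24 at Runx1, 0.34 at Runx2, 0.47 at Runx3 and 0.00 at Cbfb, and on the deposited fold they were 0.03, 0.07, 0.19 and -0.16. Runx3 was highest and Cbfb lowest on either scale, which is a description, since the regions of a gene are not replicates.

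**Figure D5:**
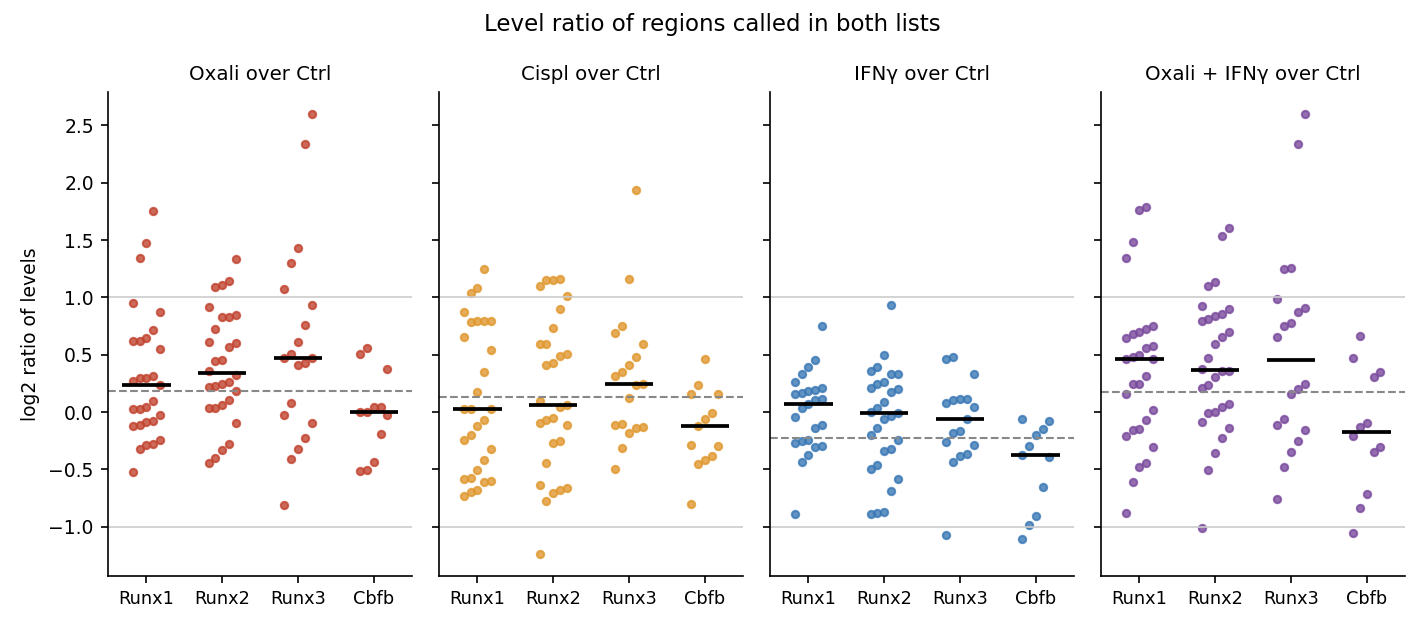
Log2 ratio of levels to Ctrl for each member called in both lists, by gene and treatment. Black bars are gene medians, dashed lines the medians over all regions (-0.23 in IFNγ, 0.19 in Oxali, 0.13 in Cispl and 0.18 in Oxali + IFNγ) and grey lines the 2-fold limits. The highest points with Oxali are the Runx3 regions at 2.60 and 2.33, and all 11 Cbfb points with IFNγ lie below 0, against 7 once centred.

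At matched dose and time, Cispl and Oxali were set against each other over 121 members called in both lists. The median log2 ratio of Cispl to Oxali was -0.22, against -0.10 over all regions. Cispl was at least 2-fold lower at 7 (5.79%, background 2.74%) and at least 2-fold higher at 1 (0.826%, background 1.5%). The 7 included Runx1 P1 and Runx3 P1. By gene the median was -0.36 at Runx1, -0.14 at Runx2, -0.15 at Runx3 and -0.11 at Cbfb. Oxali + IFNγ against Oxali had a median of 0.00 over 127 members. Against IFNγ alone, Oxali + IFNγ was at least 2-fold higher at 19 of 89 members (21.3%, background 19.3%) and lower at 0 (background 0.85%).

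In the 201 bases around the highest summit of each region, both strands were read for the letters of 6 motifs. RUNX letters were found at 50 of 169 members (29.6%) against 25.3% of all regions, from 21.4% at Runx3 to 37.3% at Runx1. AP-1 letters (TGANTCA) were found at 48 of 169 (28.4%) against 44378 of 211107 regions in all, with 32.2% at Runx1, 29.8% at Runx2, 35.7% at Runx3 and 8.00% at Cbfb. Forkhead letters (TGTTTAC) were found at 10 (5.92%) against 4.37% and GAS letters (TTCNNNGAA) at 9 (5.33%) against 6.05%. ETS letters (CGGAAGT) were found at 1 (0.592%) against 1.22%, and NF-κB letters (GGGANTTCC) at 0 against 0.972%. Start-site regions held fewer AP-1 letters genome-wide (9.45%) than other regions (22.3%), so shares also depend on where regions lie.

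Partners and targets of RUNX proteins were counted from lists of 22 and 18 genes, by whether the gene or the 5 kb around it held a gained or lost region. Among the partners and regulators, 15 had a gain in IFNγ (68.2% against 28.9% of protein-coding genes), 16 in Oxali (72.7% against 53.2%), 14 in Cispl (63.6% against 61.6%) and 15 in Oxali + IFNγ (68.2% against 59.3%). Losses were found at 12, 8, 4 and 5, against 33.3, 22.3, 16.1 and 19.5% of all genes. The partners had a median length of 86.6 kb against 17.4 kb over all genes, and a longer gene holds more regions, so these shares cannot be told apart from gene length. The most gains, summed over the treatments, were at Hdac4, a histone deacetylase (2 in IFNγ, 10 in Oxali, 23 in Cispl and 13 in Oxali + IFNγ), at Hipk2, a kinase (4, 8, 20 and 6), and at Smad3, a TGF-β effector (5, 7, 11 and 8). Lost regions in the same lists numbered 7, 0, 1 and 0 at Hdac4, 12, 10, 6 and 9 at Hipk2, and 5, 2, 0 and 0 at Smad3, so Hipk2 lost more than it gained in all but Cispl. Ets1, Twist1 and Runx1t1 had no strong region in any list.

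The targets had a median length of 15.2 kb, close to that of all genes. Gains were found at 10 of 18 in IFNγ (55.6% against 28.9%), 12 in Oxali (66.7% against 53.2%), 14 in Cispl (77.8% against 61.6%) and 15 in Oxali + IFNγ (83.3% against 59.3%). Losses were found at 9, 5, 4 and 6, or 50, 27.8, 22.2 and 33.3% against 33.3, 22.3, 16.1 and 19.5%. Gains and losses alike thus lay above the shares over all genes. The list is short and was chosen with earlier results of these data known. The number of called regions per gene was not matched, and the differences in share were not tested. Spi1, a regulator of myeloid cells, had 4, 4, 5 and 5 gains in the treated lists. Tgfbr1, a TGF-β receptor, had 0, 4, 9 and 5. Alpl, the alkaline phosphatase of bone, had 0, 3, 4 and 8, and Csf1r, the receptor of macrophage growth factor, had 1, 4, 6 and 4. Lost regions numbered 0 at Spi1 in every list, 1 in IFNγ at Tgfbr1 and at Alpl, and 1 in each treated list at Csf1r. Gzmb, a protease of cytotoxic lymphocytes, had no strong region in Ctrl or IFNγ and 2, 1 and 2 in Oxali, Cispl and Oxali + IFNγ. Ibsp, a bone matrix gene, had none in any list.

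At the 50 kb edge of the windows, regions on either side were alike at Runx1 downstream and differed elsewhere. Just inside the Runx1 window, a region 48.7 kb downstream had levels of 13.2, 18.1, 19.3, 12.1 and 21.2, and just outside, one 50.6 kb downstream had 12.2, 20.9, 23.1, 14.2 and 27.5. Upstream of Runx2, P1 was the outermost member and the next region, 75.9 kb away, was called in Ctrl alone at 3.38. Upstream of Runx3, regions at 46.7 kb (9.89 in Ctrl and 13.3 in Oxali) and 50.9 kb (3.72, in Oxali + IFNγ alone) lay on either side of the edge. Upstream of Cbfb, the last member at 49.3 kb had 40.4 in Ctrl and 41.6 in Oxali, and the next region at 54.3 kb had 3.54 in Ctrl and was not called in Oxali.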

How the data were processed

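ATAC-seq was performed on 10 libraries of Myc-CaP cells, 2 in each of 5 groups taken from the labels. Per the study's methods, the authors trimmed adapters with cutadapt and aligned to mm10 with Bowtie2 (2.2.8). Poorly mapped, duplicate and mitochondrial reads were discarded, both libraries of a group were combined, and MACS2 (2.1.0) called peaks with no control library, after which blacklisted peaks were dropped. The deposited fold is a ratio, the summit pileup with 1 added over the local background with 1 added. The authors' −log10 p-value is the Poisson probability of the pileup, and their −log10 q-value adjusts it within a list. The deposited score was not used.

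The pileup and background behind each fold and p were solved and were recovered for 100% of summits in each list. The genome background was the lowest common background of a list. Summits of 1 interval were counted as 1 region. Lists end at a −log10 p of 2.00, except Cispl at 2.99, so weak regions are missing there. Ratios carry exact binomial intervals, and the 2-fold limit is used with no test.

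Start sites were those of protein-coding transcripts, with 1 kb on either side. All 4 genes matched the RefSeq promoter table. Named regions were the start-site regions, the strongest gain and loss per gene and treatment, the highest level per gene, and the 2 largest and 2 smallest ratios per treatment at a pileup of at least 100. The members, lists and rules were chosen with earlier results of these data known. Alternatives are given in the closing section. Python 3.11.15 with numpy 2.4.6, pandas 2.3.3 and scipy 1.17.1 was used, and recovery and calls were tested on simulated data. Some marker genes are not reported here.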

Additional observations from a re-analysis of the deposited data

How the results depend on the processing

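No paired analysis was possible because the 2 libraries of each group were pooled before their peaks were called, so no replicate could be left out either. At equal ranks, the 100000 strongest regions of each list, gained regions in Oxali, Cispl and Oxali + IFNγ numbered 19, 14 and 24 (20.0, 15.4 and 24.0% against 18.5, 17.4 and 20.2% over all regions), lost regions 12, 10 and 9 (12.8, 10.6 and 9.57% against 15.3, 13.6 and 15.7%), and strong Cispl regions 91. The gained shares of Oxali and Oxali + IFNγ thus moved from below to above those over all regions. At a q-value of at most 1e-05, gains numbered 4 with IFNγ (4.49% against 6.67%) and 31 with Oxali + IFNγ (25.0% against 32.0%). When regions within 500 bp counted as shared, 2 were lost with Oxali (1.87% against 6.67% over all regions). Gained shares of IFNγ, Oxali and Cispl were then 9.00, 27.3 and 32.5% against 7.93, 26.3 and 28.4%, above those over all regions. That of Oxali + IFNγ stayed below, at 28.8% against 32.0%. With the deposited fold in place of the level, the median log2 ratio was 0.0328 in Oxali, -0.12 in Cispl and 0.0439 in Oxali + IFNγ, regions at least 2-fold higher and lower with Oxali numbered 5 and 2, and 0 were lower with Oxali + IFNγ. Centred on regions called in all lists, the IFNγ median was 0.19, with 2 regions higher and 0 lower. The cause of these moves was not tested, beyond that equal ranks keep fewer regions. Of 109 alternative values at the windows, 90 stayed within 1.5 times the count or within the interval of the median, and 19 moved. Of 246 alternative ratios at named regions, 198 stayed within their counting interval and 48 moved. No named ratio past 2-fold reversed. Reversal was asked of those ratios only, so a median that changed sign is not counted as reversed. The gains at Runx1 P1, Runx2 P1, the Runx2 downstream region and the Cbfb upstream region were present in all 7 settings with Oxali and Oxali + IFNγ, and in 0 of 7 with IFNγ. With Cispl they were present in 7, except Runx1 P1 in 6, being absent at equal ranks. The Runx2 downstream region was chosen by its level and the Cbfb region as the strongest gain of its window. The presence of those regions in every platinum setting therefore supports nothing, and all settings reuse the same pooled lists. Weak regions of the shallow IFNγ list are to be read with caution, and a region missing from a list may lie anywhere under the level given for listing.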
